A study of Saccharomyces cerevisiae with 10 samples.

Results

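In *Saccharomyces cerevisiae* cells that live on the nonsense allele *sup35-218*, the genes for making histidine, arginine, lysine, leucine, isoleucine and valine, aromatic amino acids and purines stood lower than in the initial *SUP35* strain, and so did genes of the pheromone response. Many genes of the hexose transporter, heat shock chaperone, cyclin and cell wall integrity lists and the plasmid genes *SUP35* and *LEU2* stood higher. The comparison covers all genes in 6 of the 10 cultures of the series, chosen by their labels: 3 cultures of *sup35-218* cells at stage 3 and 3 cultures of the initial strain at stage 1.

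RNA was sequenced from haploid yeast whose chromosomal *SUP35* is replaced by *SUP35*::HIS3MX, so that the plasmid copy is the sole source of the release factor eRF3. All cultures are labelled MATa. Their shared alleles are ura3-52 and a leu2 allele, which make the plasmid markers selectable, lys2 and his3-d200, and the nonsense alleles ade1-14(UGA) and trp1-289(UAG), whose readthrough serves as a test of suppression. The 3 cultures of U-14-D1690 (SUP35 stage 1) carried wild-type *SUP35* on a plasmid with *URA3* and, per the study's methods, grew in medium lacking uracil. The 3 cultures of 218-L-14-D1690 (*sup35-218* stage 3) carried *sup35-218* on a centromeric plasmid with *LEU2*, had lost the *URA3* plasmid on 5-FOA, a drug that kills cells with active *URA3*, and grew without leucine. The 4 cultures of L-14-D1690 (SUP35 stage 3) went through the same exchange with wild-type *SUP35* on the *LEU2* plasmid and are given beside the comparison. Allele, marker, medium and passage through 5-FOA therefore differ together between the groups compared, and their parts cannot be told apart in it. The labels name the same plasmid, pRSU2, for both *SUP35* groups and plain synthetic complete medium for all cultures, which differs from the methods. The cultures are biological replicates of 1 strain each, and cultures were harvested at an OD600 of 0.8 to 1.0.

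Sup35 (eRF3) is a GTPase that works with Sup45 (eRF1) to release the finished protein when a ribosome reaches a stop codon. With less of it, ribosomes read through stop codons more often, and decay of transcripts with premature stops also depends on the termination complex. A nonsense allele of *SUP35* is itself read through at its premature stop, so cells that carry it as their sole copy have little full-length protein. Amino acid pathways in yeast are under general control by Gcn4, whose own translation responds to starvation through Gcn2, while pheromone genes answer to Ste12 and the genes of the start of S phase to the MBF factor.

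The count table held 3044096 to 4861009 counts per culture, so a level of 3 counts corresponds to 0.617 to 0.986 CPM, the read count scaled to library size. Of 5856 genes tested, 863 (14.7%) were higher and 965 (16.5%) lower in *sup35-218* than in *SUP35* stage 1 cells. Here a differentially expressed gene has an adjusted p under 0.05 and a log2 fold change (log2FC) above 0.5 in size. At a log2FC above 1 in size 176 (3.01%) were higher and 393 (6.71%) lower. The median log2FC over all genes was 0.04 and its median size 0.34. For 1665 genes (28.4%) all 3 *sup35-218* cultures lay above all 3 *SUP35* stage 1 cultures, and for 1644 (28.1%) all lay below. Against *SUP35* stage 3, the same rule called 628 genes (10.7%) higher and 735 (12.6%) lower. *SUP35* stage 3 differed from *SUP35* stage 1 at 422 higher (7.21%) and 388 lower genes (6.63%). These 3 comparisons share cultures, so their values are set side by side only. Whether *sup35-218* stands at a different distance from each wild-type group is tested by the contrast of those groups, which is given where it bears on a gene.

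The marker genes raised questions about the labels at 2 points. The mating pheromone gene *MF(ALPHA)1*, which cells of mating type a do not use, stood at 769.7, 644 and 641 CPM in the *SUP35* stage 1 cultures and 681, 474 and 449 CPM in the *sup35-218* cultures. *SAG1*, the alpha-agglutinin, and *STE3*, the receptor for a-factor, were also read in every culture. The a-factor gene *MFA1* had 74.7, 68.2 and 39.2 CPM at stage 1 and only 2.54, 4.81 and 3.01 CPM in *sup35-218*. The cultures are therefore called by their strains here and not by a mating type. *HIS3* was read at 529, 489 and 501 CPM at stage 1 and 197, 247 and 146 CPM in *sup35-218*, although the label gives the allele his3-d200. The labels also give the cassette *SUP35*::HIS3MX, and these counts do not show which sequence the *HIS3* reads come from. Reads of the alpha-specific genes and of *HIS3* were present in all 10 cultures.

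Promoter sequences are shown for genes on which the results below turn to set the members beside the binding sites known for their pathways; how many members hold each site is given after them. Each stretch was read from the S288C reference genome (R64, RefSeq) on the strand of the gene, 5′ to 3′, within the 250 bases before the start codon and the 50 after it. Capitals mark matches to the site named, on either strand. The core site of Gcn4 and Bas1, TGACTC, lies before the histidine gene *HIS4* (chrIII:68502-68583, minus strand) and the arginine gene *ARG4* (chrVIII:141551-141606, minus strand).
*HIS4*: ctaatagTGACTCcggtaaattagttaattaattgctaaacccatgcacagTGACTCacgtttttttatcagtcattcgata
*ARG4*: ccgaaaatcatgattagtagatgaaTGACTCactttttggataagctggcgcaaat
*LEU1* (chrVII:478805-478894, minus strand), for the isomerase of leucine synthesis, holds the site CCGNNNNCGG of the factor Leu3.
*LEU1*: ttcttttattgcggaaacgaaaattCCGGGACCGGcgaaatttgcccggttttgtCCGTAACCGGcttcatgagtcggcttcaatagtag
The pheromone response element TGAAACA, bound by Ste12, lies before *FUS1* (chrIII:71591-71674, plus strand) and *PRM1* (chrXIV:110711-110789, plus strand), which act in cell fusion.
*FUS1*: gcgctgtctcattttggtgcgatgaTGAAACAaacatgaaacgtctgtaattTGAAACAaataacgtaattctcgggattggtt
*PRM1*: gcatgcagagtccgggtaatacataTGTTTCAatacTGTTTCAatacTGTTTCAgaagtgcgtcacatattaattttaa
The MluI cell cycle box ACGCGT, bound by MBF, lies before *CDC21* (chrXV:467680-467772, minus strand), which makes thymidylate, and *RAD27* (chrXI:225973-226080, minus strand), a nuclease of the replication fork.
*CDC21*: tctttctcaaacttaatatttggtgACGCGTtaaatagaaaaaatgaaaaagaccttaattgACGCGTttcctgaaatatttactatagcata
*RAD27*: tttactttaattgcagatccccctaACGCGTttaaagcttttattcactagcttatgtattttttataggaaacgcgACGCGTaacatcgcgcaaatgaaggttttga

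Over all 5856 promoter windows, 8.23% held TGACTC, and the median log2FC was -0.26 over genes with it and 0.06 over genes without it. The site was in 5 of 6 windows of histidine genes, 6 of 10 of arginine genes and 7 of 12 of purine genes. Within the arginine list the median was -1.68 with the site and -0.81 without, and within the purine list -0.60 and -0.93. Within the histidine list it was -1.40 with the site and -1.48 without. The MluI box was in 3.21% of all windows and 22 of 50 windows of replication genes, whose medians were 0.34 with and 0.06 without it. TGAAACA was in 7.29% of all windows and 12 of 20 windows of pheromone targets, with medians of -1.25 and -1.10. CCGNNNNCGG was in 1.45% of all windows and in 2 of 11 of branched-chain genes, those of *LEU1* and *BAT1*. Over all genes the medians with and without the site were 0.15 and 0.04 for the MluI box. They were -0.01 and 0.04 for TGAAACA and -0.05 and 0.04 for CCGNNNNCGG. The sites are matches of letters, given as a description of the promoters.

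*SUP35* itself rose in *sup35-218* cells. Its CPM were 406, 421 and 481 in *SUP35* stage 1 and 2185, 1833 and 1919 in *sup35-218* (log2FC 2.18, SE 0.18, adjusted p = 7.1e-07), with 602 ± 139.6 (SD, n = 4) in *SUP35* stage 3. All 3 mutant cultures lay above all 7 wild-type cultures. The genes on either side of *SUP35* on chromosome IV moved with it: *HSP42*, a small heat shock protein, had a log2FC of 1.56 (SE 0.20) and *ARG82*, an inositol polyphosphate kinase, one of 1.58 (SE 0.18). The next genes out did not pass the test, with log2FC of 0.03 for *SEC7* and -0.09 for *HMO1*. For *HSP42* and *ARG82* these counts cannot separate reads of the chromosomal gene from reads of any plasmid sequence.

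*LEU2*, the marker of the stage 3 plasmid, went from 1853, 1589 and 1434 CPM at stage 1 to 7221, 6454 and 7194 CPM in *sup35-218* (log2FC 2.10, SE 0.19, adjusted p = 1.6e-06). In *SUP35* stage 3 it was at 2409 ± 457 CPM (SD, n = 4), so that *sup35-218* also exceeded the wild-type cells with the same marker, by a log2FC of 1.53 (adjusted p = 2e-05). Per the study's methods no *LEU2* plasmid was present at stage 1. For *LEU2*, too, these counts cannot separate reads of the chromosomal leu2 allele from reads of the plasmid. Of the tested genes nearest to *LEU2* on chromosome III, *NFS1* on one side had a log2FC of -0.11 and *YCL021W-A* on the other fell from 52.9, 58.3 and 57.3 to 21.1, 24.6 and 19.3 CPM (log2FC -1.38, SE 0.15, adjusted p = 9.5e-06). *URA3*, the stage 1 marker, fell from 829, 882 and 1091 to 79.7, 79.8 and 59.2 CPM (log2FC -3.68, SE 0.16, adjusted p = 8.6e-09), and at 81.9 ± 10.9 CPM it was as low in *SUP35* stage 3, with a log2FC of -0.17 between the stage 3 groups (adjusted p = 0.39). *GEA2*, beside *URA3*, had a log2FC of 0.06. Among the other strain markers *LYS2* fell with a log2FC of -1.95, *HIS3* with -1.36, *ADE1* with -0.93 and *TRP1* with -0.57. *ADE1* and *TRP1* carry the premature stops ade1-14 and trp1-289 in this strain; their CPM were 440.4, 461 and 446 against 248, 234 and 224 for *ADE1* and 68.4, 69.4 and 69.7 against 43.9, 51.2 and 44.4 for *TRP1*. *TRP1* came to -0.48 and -0.50, outside the call, without *sup35-218* replicate 1 and replicate 3.

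**Figure D1:**
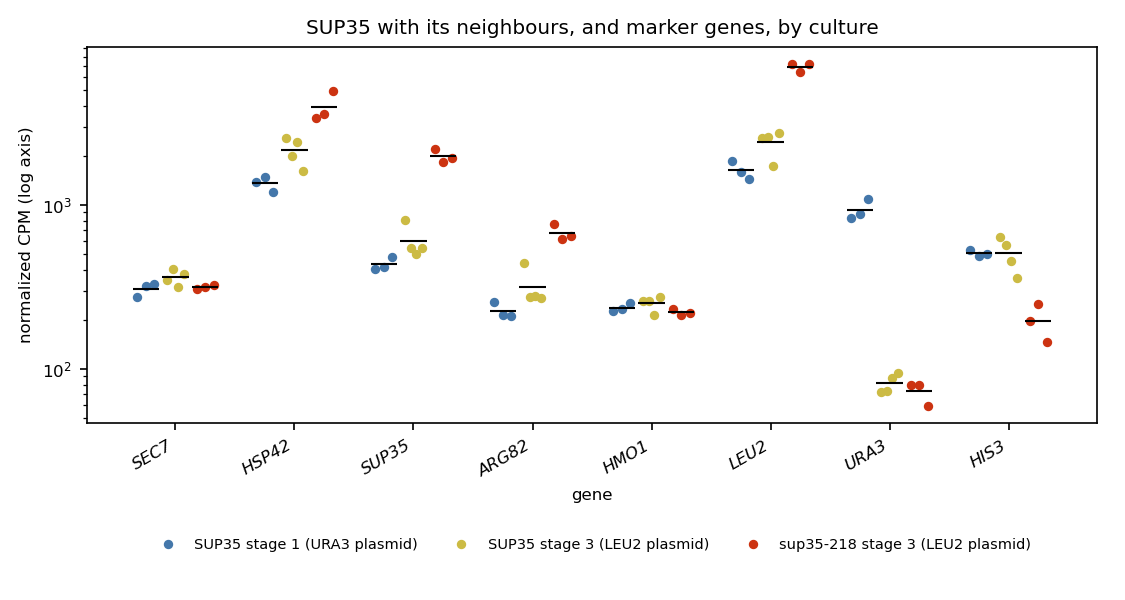
Normalized CPM (log axis) of SUP35, its neighbours SEC7, HSP42, ARG82 and HMO1, and the markers LEU2, URA3 and HIS3 in each of the 10 cultures; each point is 1 culture and each short bar a group mean. SUP35 and LEU2 are highest in the 3 sup35-218 cultures (1833 to 2185 and 6454 to 7221 CPM), HSP42 and ARG82 are raised with SUP35 while SEC7 and HMO1 are level, and URA3 is low in both stage 3 groups.

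The partners of Sup35 did not rise with it. *SUP45*, the eRF1 gene, was at 264, 265 and 304 CPM in stage 1 and 303, 276 and 252 CPM in *sup35-218*, ranges that overlap (log2FC -0.00, SE 0.12). Of the 14 genes listed for termination and nonsense-mediated decay 0 rose and 2 fell (14.3%), where 14.7% of all genes rose and 16.5% fell. The share that fell was thus near that of all genes. The 2 were *HRP1*, an RNA-binding protein of mRNA 3′ ends and decay (log2FC -1.30), and *EBS1*, a decay factor (-0.52). *EBS1* lies at the cutoff and came to between -0.40 and -0.50 without stage 1 replicate 1, *SUP35* stage 3 replicate 1 or 2, or *sup35-218* replicate 1 or 3. *NAM7*, which encodes the helicase Upf1, had a log2FC of -0.49 and was within the 0.5 cutoff. *BSC1*, named for bypass of its own stop codon, was among the genes with the largest rise, at 9.68, 15.3 and 12.6 CPM in stage 1 against 86.5, 61.7 and 71.5 CPM in *sup35-218* (log2FC 2.52, SE 0.21, adjusted p = 8.6e-07).

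Amino acid biosynthesis fell across pathways. Histidine genes fell at 5 of 6, arginine genes at 10 of 10, lysine genes at 9 of 9, branched-chain genes at 10 of 11 and aromatic genes at 11 of 12, and 0 of these 48 rose, where 16.5% of all genes tested fell and 14.7% rose. The median log2FC was -1.44 for histidine, -1.51 for arginine, -0.84 for lysine, -1.62 for branched-chain and -0.81 for aromatic genes. Threonine, serine, glycine and asparagine genes fell at 7 of 15 with a median of -0.44. At *SUP35* stage 3 the same medians against stage 1 were -0.10, -0.29, -0.26, -0.93 and 0.01, so the branched-chain list was the one with the lowest median in wild-type cells after the plasmid exchange.

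*HIS4*, a multifunctional enzyme of histidine synthesis, was at 3749, 3485 and 3553 CPM in stage 1, 4518, 4265, 3674 and 3147 in *SUP35* stage 3 and 1029, 1304 and 912 in *sup35-218* (log2FC -1.73, SE 0.18, adjusted p = 5e-06). The mutant cultures lay below all 7 others. *HIS5*, the aminotransferase, fell with a log2FC of -1.40, *HIS7* with -1.61 and *HIS2* with -1.48. *HIS6* was the exception at -0.20 (SE 0.17), with CPM of 32.4, 33.1 and 30.1 against 29.01, 25.7 and 28.3. *HIS1*, which starts the pathway, had a log2FC of -0.89.

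*ARG4*, argininosuccinate lyase, was at 2649, 2451 and 2594 CPM in stage 1 and 935, 1099 and 785 CPM in *sup35-218* (log2FC -1.45, SE 0.16, adjusted p = 8e-06), and *SUP35* stage 3 stayed at 2682 ± 331 CPM (SD, n = 4). *ARG56*, which makes the kinase and reductase of the ornithine branch, fell further, from 3799, 3499.6 and 3862 to 1154, 1009.6 and 929 CPM (log2FC -1.85, SE 0.17). It had already fallen in *SUP35* stage 3, with a log2FC of -0.84 against stage 1 (adjusted p = 0.0018). *ARG7*, *ARG8* and the mitochondrial ornithine carrier *ORT1* had log2FC of -1.69, -1.78 and -1.67, and *CPA1*, of carbamoyl phosphate synthesis, of -0.66. The smallest falls were those of *CPA1* and of *ARG3*, the ornithine carbamoyltransferase (-0.68).

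*LEU1* had one of the largest falls. Its CPM were 7289, 5646 and 4975 in stage 1, 554, 750.0, 729.8 and 938 in *SUP35* stage 3 and 386, 409 and 504 in *sup35-218* (log2FC -3.79, SE 0.22, adjusted p = 7e-08). Most of that distance lay between the wild-type groups, where the log2FC was -3.01 (adjusted p = 4e-07), and -0.78 (adjusted p = 0.0053) separated *sup35-218* from *SUP35* stage 3. *BAT1*, the mitochondrial branched-chain aminotransferase, followed the same order with log2FC of -2.01, -1.46 and -0.55. *ILV3*, the dihydroxyacid dehydratase, fell with log2FC of -2.31 against stage 1 and -1.38 against *SUP35* stage 3. *LEU4* and *LEU9*, the isopropylmalate synthases, had log2FC of -1.89 and -2.05, and *ILV5* of -1.38. *BAP2*, the main permease for these amino acids, went from 1587, 1559 and 1431 CPM at stage 1 to 466 ± 36.8 (SD, n = 4) in *SUP35* stage 3 and 479, 505 and 434 in *sup35-218*, with a log2FC of 0.02 between the stage 3 groups (adjusted p = 0.91).

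In lysine synthesis the largest falls after *LYS2* were those of *LYS1*, saccharopine dehydrogenase (-1.70), and *LYS14*, the activator of the pathway's genes (-1.42). *LYS20* and *LYS21*, the homocitrate synthases, had log2FC of -0.68 and -0.70. The call of *LYS20* was lost without any of the 3 stage 1 cultures, *SUP35* stage 3 replicate 2 or *sup35-218* replicate 1 or 3 (adjusted p of 0.0529 to 0.163). Its log2FC was -0.43 without *sup35-218* replicate 3 and -0.64 to -0.72 in the other 5 of these fits, and *LYS21* came to -0.49 without *sup35-218* replicate 3. In the aromatic pathway *ARO3*, which opens it, went from 1149, 847 and 897 to 389, 381 and 312 CPM (log2FC -1.42, SE 0.16), and *TRP3*, *TRP4* and *TRP5* had log2FC of -1.30, -1.31 and -0.87. *ASN1*, asparagine synthetase, fell with -0.85, *SER3* with -1.21 and *HOM2* with -0.93. *GLT1*, the glutamate synthase, fell with -1.06 and *PRO2* with -0.91, whereas *GLN1*, glutamine synthetase, rose with 0.70.

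**Figure D2:**
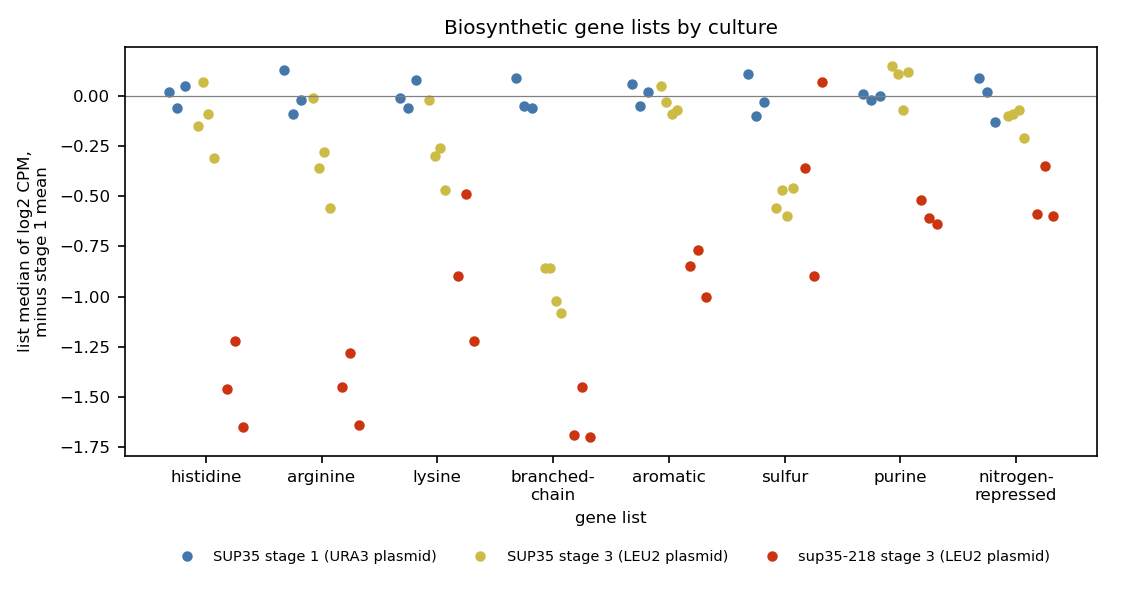
For 8 gene lists, the median over the list's genes of log2 CPM in a culture minus the mean of the 3 SUP35 stage 1 cultures (y axis, log2 units); each point is 1 of the 10 cultures. The 3 sup35-218 cultures lie lowest in the histidine, arginine, branched-chain and aromatic lists, the SUP35 stage 3 cultures lie between -1.08 and -0.86 in the branched-chain list, and in the sulfur list the stage 3 groups overlap.

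Sulfur genes did not move as a block: 4 of 33 rose and 13 fell, with a median log2FC of -0.28. *MET3*, ATP sulfurylase, stood at 430.1, 344 and 424 CPM in stage 1 and 1294, 247 and 1690.1 CPM in *sup35-218* (log2FC 1.43, SE 0.48, adjusted p = 0.026), so replicate 2 was far below the other mutant cultures. Its adjusted p was over 0.05 when any of the 3 stage 1 cultures or *sup35-218* replicate 1 or 3 was left out, from 0.0504 to 0.119, and in DESeq2 it was 0.0547 on all 10 cultures and 0.109 on the 6 compared. *MET1* and *MET16*, which also act in sulfate assimilation, had log2FC of -1.24 and -1.29, and in *SUP35* stage 3 of -1.96 and -1.04 against stage 1. The *MET1* call was lost when any of 9 cultures was left out (adjusted p of 0.0544 to 0.158), with DESeq2 size factors (0.0503) or upper-quartile scaling (0.0576), in the edgeR fit of 6 cultures (0.0817) and in both DESeq2 tests (0.104 and 0.204), and its log2FC was -0.72 without *sup35-218* replicate 2. Without *sup35-218* replicate 2 the list had 9 higher and 6 lower genes. Without stage 1 replicate 1 it had 8 lower, and without stage 1 replicate 2 or *sup35-218* replicate 3 it had 2 higher. *STR2* and *SAM4* fell with -1.70 and -1.42, while *CYS3*, cystathionine gamma-lyase, rose with 1.01.

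The regulators of amino acid control did not share a direction. *GCN4* transcript was at 909, 847 and 759.7 CPM in stage 1 and 895, 858 and 760.1 CPM in *sup35-218* (log2FC -0.00, SE 0.12). Its protein level, which is set largely in translation and degradation, was not measured here. *GCN2*, the sensor kinase, fell with -0.88 (SE 0.09). *PCL5*, the cyclin that marks Gcn4 for degradation, fell from 2783, 2461 and 2642 to 574, 661 and 533 CPM (log2FC -2.16, SE 0.18, adjusted p = 7.8e-07). *CDC4*, of the ubiquitin ligase for Gcn4, fell with -0.62, and *GIR2*, a partner of Gcn1, rose with 0.63. Of 21 cytosolic aminoacyl-tRNA synthetases 8 fell and 0 rose, with *CDC60*, for leucine, at -1.83 and *YDR341C*, for arginine, at -1.32. *CDC60* was also lower in *SUP35* stage 3 than in stage 1, with a log2FC of -1.19.

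Among purine genes 7 of 12 fell and 0 rose, with a median of -0.62. *ADE4*, the first step, had CPM of 813, 781 and 823 in stage 1 and 436, 395 and 291 in *sup35-218* (log2FC -1.11, SE 0.15). *ADE6* and *ADE57* had log2FC of -0.93 and -0.76, and *BAS1*, the activator shared with histidine genes, of -1.15. *ADE17* and *ADE2* were within the cutoff at -0.46 and -0.36. In guanine synthesis *IMD2* rose with 1.44, and 4 of 15 genes of that list rose and 0 fell. *URA10*, a minor orotate phosphoribosyltransferase, fell from 834, 611 and 614 to 174, 188 and 162 CPM (log2FC -1.97, SE 0.19) while *URA1*, the dehydrogenase of the pathway, rose with 0.84. *FOL2*, the first enzyme of folate synthesis, fell with -1.49.

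Genes of nitrogen uptake and use fell in part: 12 of 25 genes under nitrogen repression were lower and 3 higher, with a median of -0.50. The ammonium permease *MEP2* had CPM of 139, 96.7 and 85.2 in stage 1 and 43.9, 35.7 and 32.1 in *sup35-218* (log2FC -1.52, SE 0.20, adjusted p = 3.5e-05). The urea permease *DUR3* fell with -1.51, the GATA activators *GLN3* and *GAT1* with -1.35 and -1.29, and the general permease *GAP1* with -1.79. *GLN3* was already lower in *SUP35* stage 3 (-1.01 against stage 1). In the other direction stood the catabolic genes *PUT1*, proline oxidase (1.42), and *CAR1*, arginase (1.06).

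Translation lists differed among themselves. Of 57 small-subunit ribosomal proteins 14 rose (median 0.33), of 81 large-subunit proteins 9 (median 0.24), of 71 mitochondrial ribosomal proteins 23 (median 0.40), and 0 fell in any of the 3 lists. As a share 24.6%, 11.1% and 32.4% rose, against 14.7% of all genes, so the large-subunit share was below that of all genes. RNA polymerase I and III genes rose at 3 of 29 and fell at 1. Ribosome biogenesis factors rose at 32 of 109 and fell at 2, with a median of 0.37. The largest ribosomal changes were those of *RPS22B* (50.5, 57.6 and 87.8 against 166, 198 and 157 CPM, log2FC 1.42) and *RPS9A* (0.93). Leaving out stage 1 replicate 3 raised the small-subunit, large-subunit and biogenesis counts to 29, 27 and 56, and leaving out stage 1 replicate 1 lowered them to 7, 4 and 8. Without stage 1 replicate 2 the small-subunit and biogenesis counts were 9 and 11, without *sup35-218* replicate 3 the small- and large-subunit counts were 23 and 18, and without *sup35-218* replicate 1 or 2 the biogenesis count was 19. The number of ribosomal genes called thus rests on single cultures, while the mitochondrial list stayed within 1.5 times its count. Many of these proteins come from gene pairs of like sequence, whose reads the counting could split, so single copies are uncertain. Summed over the large-subunit list the stage 1 cultures spanned 17350 to 24720 CPM and the *sup35-218* cultures 21380 to 24710 CPM, so the groups overlapped. Between the stage 3 groups the medians were 0.02 for both cytosolic lists and -0.10 for the mitochondrial one. For biogenesis factors it was 0.12, with 3 of 109 higher and 0 lower. *DED1*, a helicase of initiation, rose with 0.83, the eIF3 subunit *TIF35* with 0.70 and the exchange factor *EFB1* with 0.60.

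Transcripts of sugar transporters were higher in *sup35-218* cells. Of 18 hexose transporters and sensors 10 rose and 0 fell, with a median of 0.74, and 11 of 18 were higher than in *SUP35* stage 3. *HXT2*, a high-affinity transporter, was at 1139, 1288 and 833 CPM in stage 1, 915, 869, 1073 and 709.9 in *SUP35* stage 3 and 3067, 3216 and 3269 in *sup35-218* (log2FC 1.55, SE 0.18, adjusted p = 1.4e-05). The mutant cultures exceeded all 7 others. *HXT4*, *HXT6* and *HXT7* had log2FC of 1.05, 0.90 and 0.87; *HXT6* and *HXT7* are near-identical copies, so their split is uncertain. The low-affinity transporters *HXT1* and *HXT3* did not pass the test, at 0.30 and 0.02.

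*SUC2*, the invertase, had 362, 691 and 537 CPM in stage 1, 177, 290.3, 299.7 and 283 in *SUP35* stage 3 and 1035, 1345 and 1642 in *sup35-218* (log2FC 1.34, SE 0.24, adjusted p = 0.00059). It was lower in *SUP35* stage 3 than in stage 1 (log2FC -1.02, adjusted p = 0.0056), so *sup35-218* stood further from stage 3 (2.35) than from stage 1. The maltose genes *MAL11*, *MAL12* and *MAL32* rose with 1.44, 1.78 and 1.71; *MAL12* and *MAL32* are near-identical. *RGI2*, a gene of respiratory growth, showed the largest rise among the genes named, from 8.77, 15.5 and 7.78 to 59.4, 63.1 and 96.8 CPM (log2FC 2.72, SE 0.26, adjusted p = 3.5e-06). *ADH2*, the ethanol-oxidizing dehydrogenase, fell with -1.95 and *YAT2*, a carnitine acetyltransferase, with -1.88. Over the 28 glucose-repressed genes 10 rose and 7 fell. Among regulators *HXK2*, hexokinase, rose with 0.92, the repressor *MIG1* with 0.62, and the activators *ADR1* and *CAT8* with 1.23 and 0.78.

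Glycolytic genes rose at 5 of 15 and fell at 0, with *GPM1* at 1.09 and *ENO1* at 0.61. Pyruvate decarboxylase *PDC1* went from 2429.9, 2120.0 and 2763 to 6069, 5569.5 and 5837 CPM (log2FC 1.26, SE 0.20), *PDC6* rose with 1.94 and *PDC5* fell with -1.68. *ADH4* rose with 1.98, and was as high in *SUP35* stage 3 (2036 ± 715 CPM, SD, n = 4), where the *sup35-218* cultures were at 2376, 2091 and 2113 CPM. *ALD5*, a mitochondrial acetaldehyde dehydrogenase, fell with -2.09 and *ADH5* with -1.79. *PYC2*, pyruvate carboxylase, and *IDP1*, isocitrate dehydrogenase, fell with -1.38 and -1.40.

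Nuclear genes of the respiratory chain and ATP synthase rose at 19 of 41 and fell at 4, with a median of 0.43. Subunits of cytochrome oxidase and ATP synthase were among the risers, such as *COX7* (1.00), *COX6* (0.83), *ATP17* (0.99) and *ATP19* (1.19). Against them stood *NDE2*, an external NADH dehydrogenase, with 713, 630.2 and 323 CPM in stage 1, 534, 326, 397 and 167 in *SUP35* stage 3 and 54.1, 51.2 and 46.7 in *sup35-218* (log2FC -3.46, SE 0.37, adjusted p = 7.6e-06). *HAP1*, the haem-responsive activator, fell with -0.63. In stage 3 wild-type cells 9 of the 41 were higher and 2 lower than at stage 1. No counts were recorded for the 28 mitochondrial genes in the table, so the mitochondrial subunits are not covered.

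Chaperones rose broadly. Of 34 heat shock chaperones 23 rose and 1 fell, with a median of 0.66, and 17 of 34 were higher than in *SUP35* stage 3. *BTN2*, a protein-sorting factor of aggregates, had CPM of 642, 702 and 574 in stage 1, 1627, 1436, 2248 and 1339 in *SUP35* stage 3 and 1509.8, 1899.8 and 2809.5 in *sup35-218* (log2FC 1.70, SE 0.23, adjusted p = 5.7e-05). Much of its rise was present in wild-type cells at stage 3, with a log2FC of 1.38 against stage 1. *SSA3*, an Hsp70, and *APJ1*, an Hsp40, rose with 1.16 and 1.22, the disaggregase *HSP104* with 0.55 and *HSP82* with 0.64. *HSP104* was not called without stage 1 replicate 1 or 3 or *sup35-218* replicate 3 (adjusted p of 0.058 to 0.0669). *HSF1*, their activator, was the 1 gene of the list that fell (-0.83, SE 0.13). The list holds *HSP42*, which lies beside *SUP35*.

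In the endoplasmic reticulum 9 of 20 genes of the unfolded protein response rose and 1 fell. *KAR2*, the Hsp70 of that compartment, went from 2456, 2600.4 and 2326 to 4018, 4850.2 and 5743 CPM (log2FC 0.98, SE 0.16, adjusted p = 0.00027), and *HAC1* and *ERO1* had log2FC of 0.61 and 0.61. Proteasome genes were nearly level, with 1 of 38 higher, the activator *RPN4* at 0.83, and 0 lower; GGTGGCA, the site of Rpn4, was in 28 of 38 of their promoter windows against 2.92% of all. The general stress genes of Msn2 and Msn4 were mixed, 6 of 36 higher and 2 lower (16.7% and 5.6%, against 14.7% and 16.5% of all genes). *CTT1*, the cytosolic catalase, fell from 1489, 1023 and 702 to 85.9, 59.99 and 91.8 CPM (log2FC -3.76, SE 0.41, adjusted p = 9e-06) while *HSP12* was at 0.05 (SE 0.16). Oxidative stress genes rose at 8 of 32 and fell at 5, with *SRX1* at 1.60, *OYE3* at 1.68 and the glutathione transferase *GTT2* at -1.60. The glutaredoxin *GRX8* rose with 2.29.

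**Figure D3:**
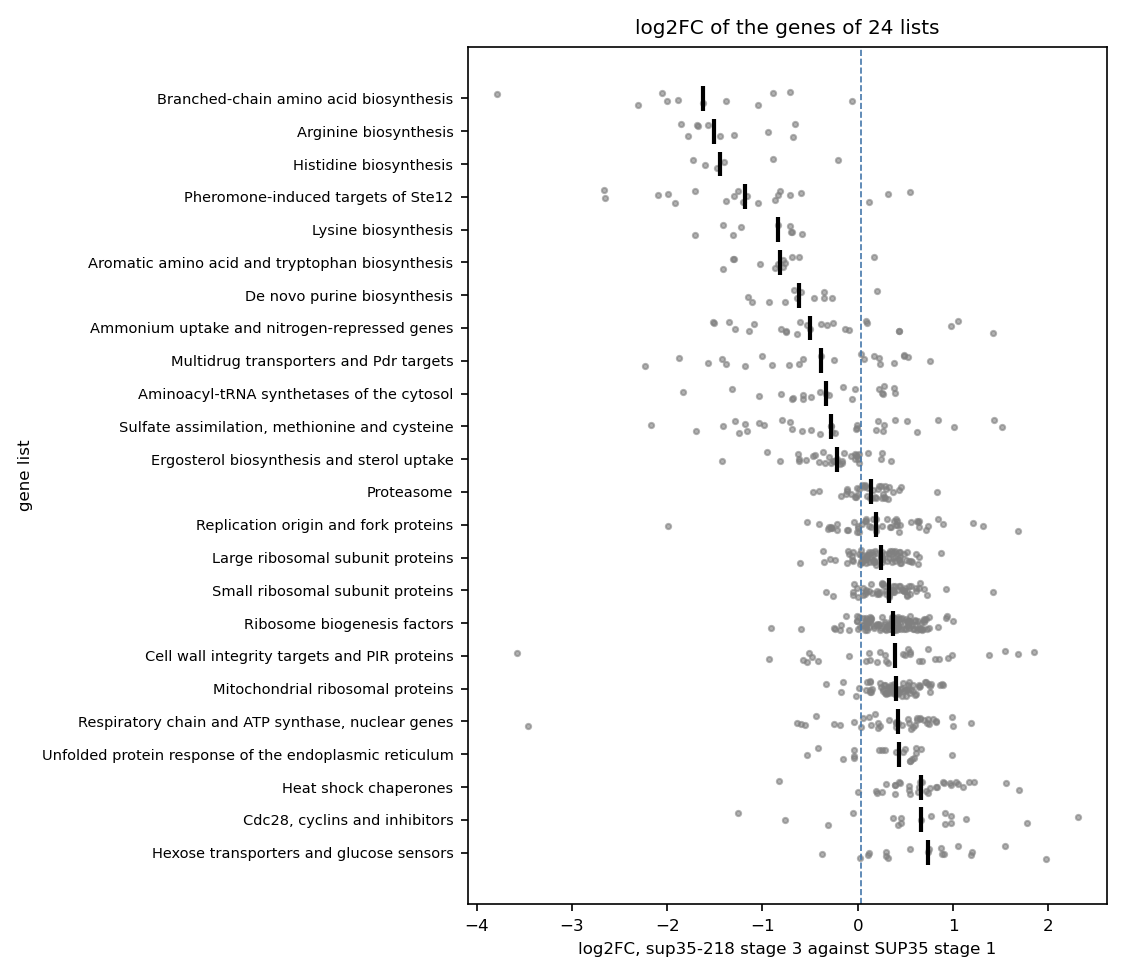
log2FC of sup35-218 against SUP35 stage 1 (x axis) for every tested gene of 24 lists; grey points are single genes, the black bar is the list median, and the dashed line is the median over all 5856 genes (0.04). The arginine, branched-chain and histidine lists and the pheromone targets lie to the left with medians between -1.62 and -1.18, and the hexose transporter, cyclin and chaperone lists to the right with medians between 0.66 and 0.74.

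The cell cycle lists did not share a direction, and those of the anaphase-promoting complex and of the Pho85 cyclins (1 of 11 higher, 3 lower) held more falls than rises. Among Cdc28, its cyclins and inhibitors 9 of 17 rose and 2 fell, with a median of 0.67. *CLB4*, a B-type cyclin, was at 24.8, 21.5 and 18.5 CPM in stage 1, 18.2, 31.5, 28.6 and 27.2 in *SUP35* stage 3 and 69.01, 96.5 and 156 in *sup35-218* (log2FC 2.31, SE 0.27, adjusted p = 1.5e-05). The S-phase cyclin *CLB5* rose with 1.13, the G1 cyclins *CLN2* and *CLN3* with 0.98 and 0.98, and *CDC28*, the kinase, with 0.92 (CPM 101, 106 and 105 against 179, 204 and 206). *CLB1*, a mitotic cyclin, fell with -0.77, and *FAR1*, the inhibitor of G1 cyclins that pheromone induces, with -1.26.

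Of 17 cell cycle transcription factors 5 rose and 2 fell (29.4% and 11.8%, against 14.7% and 16.5% of all genes). *TOS4* rose with 2.08, *FKH1* with 1.39 (CPM 16.3, 18.6 and 19.1 against 41.1, 48.7 and 51.7), *ASH1* with 1.04 and *NDD1* with 0.92, and *YHP1*, a repressor, fell with -1.04. *SWI6*, the shared subunit of SBF and MBF, was at 0.23 (adjusted p = 0.19) and not called. In the anaphase-promoting complex and its regulators 5 of 17 fell and 2 rose (29.4% and 11.8%, against 16.5% and 14.7% of all genes). Only 3 fell when *SUP35* stage 3 replicate 1 or 2 or *sup35-218* replicate 1 or 2 was left out. The activator *CDC20* went from 367, 393 and 368 to 150.4, 131 and 136 CPM (log2FC -1.43, SE 0.15, adjusted p = 8e-06) and the subunit *CDC23* from 191, 178 and 193 to 61.4, 61.97 and 53.4 CPM (log2FC -1.67, SE 0.10, adjusted p = 9.9e-08). In *SUP35* stage 3 *CDC20* was at 337 ± 71.05 and *CDC23* at 145 ± 6.71 CPM (SD, n = 4). *APC9* was at -0.16 and within the cutoff, and *ACM1*, an inhibitor of the complex, rose with 0.97. The other riser of the list, named here after its values were seen, was *AMA1*, a meiosis-specific activator of the complex, from 2.12, 2.48 and 1.3 to 7.89, 10.8 and 15.8 CPM (log2FC 2.49, SE 0.35, adjusted p = 6.9e-05). Its stage 1 level lay near the 0.617 to 0.986 CPM that 3 counts correspond to, so the size of its rise is uncertain.

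Genes of the replicating chromosome rose in part. Of 50 replication proteins 12 rose and 2 fell, with a median of 0.19 that lies near that of all genes. *POL30*, the sliding clamp, had CPM of 8.17, 7.85 and 8.42 in stage 1 and 23.1, 26.03 and 28.9 in *sup35-218* (log2FC 1.68, SE 0.20, adjusted p = 2.1e-05), *ORC2*, of the origin complex, rose with 1.31, *RAD27* with 1.21 and the helicase subunit *MCM2* with 0.64. *PSF2*, of the GINS complex, fell from 159, 164 and 213 to 44.8, 44.1 and 45.2 CPM, and was lower in *SUP35* stage 3 than at stage 1 by a log2FC of -1.21. *CDC21* rose with 2.08 and *RNR1*, the large subunit of ribonucleotide reductase, with 1.53. Both were also higher in *SUP35* stage 3 than at stage 1, with log2FC of 1.40 and 1.03. Of 23 genes of the spindle checkpoint, cohesin and condensin 4 rose and 1 fell, where 14.7% of all genes rose. Among them the cohesin subunits *MCD1* and *SMC3* rose with 1.33 and 1.28 and the cohesin regulator *PDS5* with 1.06. Histone genes rose at 6 of 11 and fell at 0 (median 0.57), the largest change being that of *HHF2*, for H4 (1.16). Their median was 0.41 in *SUP35* stage 3 against stage 1 and 0.19 between the stage 3 groups. Septins and bud neck kinases rose at 5 of 18 and fell at 0, so that 27.8% rose against 14.7% of all genes.

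**Figure D4:**
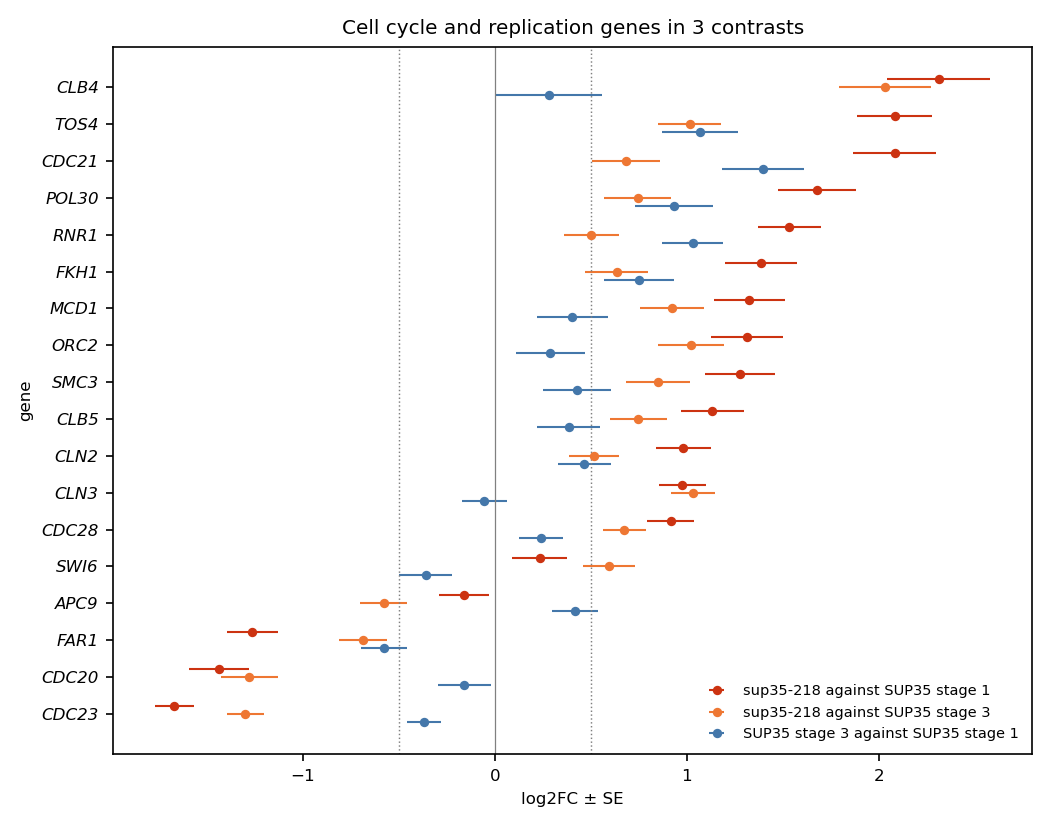
log2FC with its standard error (x axis) for 18 cell cycle and replication genes in 3 contrasts of the same fit: sup35-218 against SUP35 stage 1, sup35-218 against SUP35 stage 3, and SUP35 stage 3 against SUP35 stage 1; the dotted lines mark 0.5 in either direction. CLB4 stands at 2.31 and 2.03 against the 2 wild-type groups, which differ by 0.28, whereas CDC21 stands at 2.08 and 0.68 with 1.40 between the wild-type groups.

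Pheromone genes fell. Of 20 targets of Ste12 17 fell and 1 rose, with a median of -1.18, and of the 18 genes of the G protein and MAP kinase cascade 8 fell and 0 rose, with a median of -0.34. *FUS1*, of cell fusion, was at 182, 157 and 121 CPM in stage 1, 119.8, 75.9, 74.7 and 47.96 in *SUP35* stage 3 and 29.9, 17.5 and 25.8 in *sup35-218* (log2FC -2.65, SE 0.28, adjusted p = 7.8e-06). The *sup35-218* cultures lay below all 7 wild-type cultures. *SST2*, which silences the receptor's G protein, fell with -2.67 (CPM 259, 249 and 202 against 42.3, 35.1 and 34.4), *AGA1*, the agglutinin anchor, with -2.09, *STE12* with -1.65, the G-beta gene *STE4* with -1.08 and the kinase *FUS3* with -0.87. *PRM1* fell with -1.30 and *PRM10* was the single target that rose (0.55; 0.45 without stage 1 replicate 3, below the cutoff).

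Genes specific to a mating type fell too. Of the 7 a-specific genes 6 fell, with a median of -3.16, and all 7 were lower in *SUP35* stage 3 than at stage 1. Between the stage 3 groups 2 of the 7 were called lower in *sup35-218*. Summed over the list, *SUP35* stage 3 had 245.8, 109.9, 152.5 and 99.28 CPM and *sup35-218* 103.4, 110.1 and 122.9 CPM, so the stage 3 groups overlapped. *MFA1* had the largest fall of any gene named (log2FC -4.14, SE 0.44, adjusted p = 6.9e-06). The agglutinin *AGA2* and the receptor *STE2* fell with -3.57 and -3.16, from 233, 133 and 71.3 to 12.1, 15.00 and 21.6 CPM for *STE2*, with a wide spread among the stage 1 cultures. *STE6*, the a-factor exporter, was at -0.37 and not called. Among 4 alpha-specific genes *SAG1* fell from 681, 525 and 506 to 132, 125 and 124 CPM (log2FC -2.17, SE 0.16, adjusted p = 4.2e-07) and *STE3* with -1.17, and *MF(ALPHA)1* and *MF(ALPHA)2* were at -0.36 and 0.03 and not called. *TEC1*, the partner of Ste12 in filamentous growth, fell with -1.52.

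**Figure D5:**
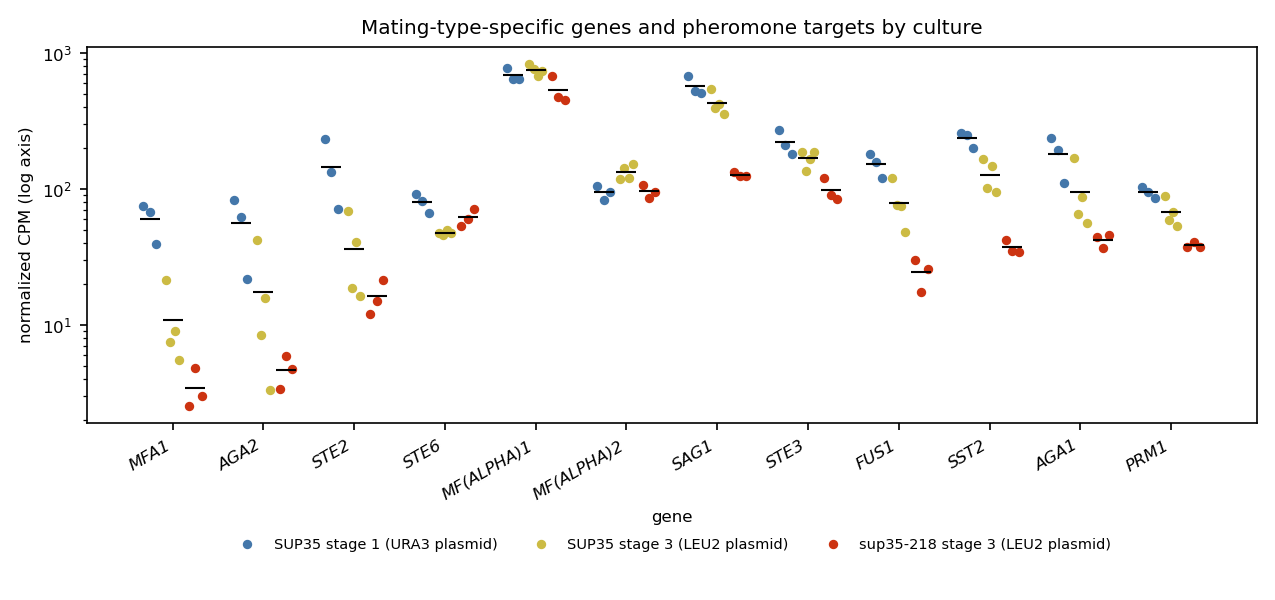
Normalized CPM (log axis) of 4 a-specific genes, 4 alpha-specific genes and 4 pheromone targets in each of the 10 cultures; each point is 1 culture and each short bar a group mean. The alpha-specific genes are read in all cultures (MF(ALPHA)1 at 641 to 770 CPM in the 3 stage 1 cultures), MFA1 is lowest in the sup35-218 cultures, and the group means of FUS1 and SST2 fall in the order stage 1, SUP35 stage 3, sup35-218.

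At the cell surface 14 of 32 genes of the cell wall integrity list rose and 5 fell, with a median of 0.40. The other wall lists did not follow: genes of glucan, chitin and mannan synthesis rose at 6 of 39 and fell at 5, TIR and DAN mannoproteins rose at 2 of 7 and fell at 3, and flocculins rose at 1 of 12 and fell at 5. For glucan, chitin and mannan synthesis the shares were 15.4% and 12.8%, near the 14.7% and 16.5% of all genes. *PST1*, a wall protein induced by damage, went from 288.2, 315 and 334 to 1168, 1116 and 730.3 CPM (log2FC 1.69, SE 0.20, adjusted p = 1.9e-05), and the covalently bound proteins *PIR3*, *PIR1* and *CIS3* rose with 1.85, 0.95 and 1.55. *PIR5* went the other way, from 120.1, 114 and 123 to 12.4, 10.2 and 7.53 CPM (log2FC -3.57, SE 0.19, adjusted p = 3.8e-08). The wall synthases *FKS1* and *CHS1* were within the cutoff at -0.14 and -0.49, and *PMT1* and *PMT2*, mannosyltransferases, rose with 0.71 and 0.71. Among multidrug transporters 11 of 23 fell and 2 rose, with *YOR1* from 920.0, 926 and 959 to 230.4, 178 and 187 CPM (log2FC -2.23, SE 0.15) and *QDR2* and *ATR1* at -1.88 and -1.57. *PDR5*, the main drug pump, was at 0.48 and not called.

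Lipid genes split. *OLE1*, the fatty acid desaturase, rose from 69.6, 70.9 and 70.9 to 276, 272 and 272 CPM (log2FC 1.96, SE 0.10, adjusted p = 2.4e-08) and its activator *MGA2* with 0.72. Of 33 sterol genes 7 fell and 0 rose, so that 21.2% fell against 16.5% of all genes. *ERG5* was at -0.95, *ERG24* at -0.81 and *ERG11*, the lanosterol demethylase, at -0.03 and not called. *AUS1*, a sterol importer, fell with -1.42, and with -1.30 between the wild-type groups. Of 29 Aft1 iron genes 9 fell and 3 rose, with a median of -0.22. *ISU2*, a scaffold for iron-sulfur clusters, was at 177, 164 and 164 CPM in stage 1, 33.9 ± 8.67 (SD, n = 4) in *SUP35* stage 3 and 29.01, 35.1 and 30.4 in *sup35-218*, and the stage 3 groups differed by -0.10 (adjusted p = 0.65). *TIS11*, which degrades transcripts when iron is scarce, rose with 1.63, and the iron transporter gene *FET3* was at -0.22 and not called.

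Vitamin genes fell at 10 of 27 and rose at 6. The biotin gene *BIO3* had CPM of 148, 136 and 153 in stage 1 and 28.4, 36.2 and 27.3 in *sup35-218* (log2FC -2.25, SE 0.21, adjusted p = 2.2e-06), and the biotin permease *VHT1* and the pyridoxine gene *SNZ1* both fell, with -1.65 and -1.65. *THI11*, 1 of several near-identical thiamine genes, rose with 1.18 and its copy is uncertain. In NAD synthesis 5 of 14 fell and 1 rose. *NRT1*, a nicotinamide riboside permease, fell with -2.22 and *BNA1* with -1.04, while *BNA2*, the first enzyme from tryptophan, rose with 0.98. The acid phosphatase *PHO5* fell with -1.39 and the phosphate permease *PHO84* was at -0.49 and not called. Across all 78 lists 38 had more lower than higher genes and 37 more higher than lower.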

How the data were processed

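RNA of 10 cultures was sequenced as paired reads with a directional library kit. Trimming (Trimmomatic), alignment with HISAT2 to S288C (R64-3-1) and counting with featureCounts were done by the authors, who deposited whole-number read counts of 6607 genes per culture without normalization; versions and the strand setting of the counting are not given in the sources used here, so overlapping antisense genes cannot be told apart. Cultures were grouped by strain name and replicate number in the labels. The members and gene lists were chosen with earlier results of these data known.

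Counts were normalized by TMM and tested in edgeR 4.0.16 (R 4.3.3, limma 3.58.1) by the quasi-likelihood method, with filterByExpr (minimum count 10) and all 10 cultures in 3 groups, so that the groups share an estimate of the spread. p-values were adjusted by the Benjamini-Hochberg method over 5856 genes, and a standard error is the log2FC divided by the square root of the F statistic. CPM are TMM-normalized. Replicates differed by more than counting error, and p-values measure the spread between cultures.

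Lists were written by hand from gene function: 78 lists, of whose 1753 names 1750 matched. They are described by counts and medians, without a set test. Each list count is to be read against the 14.7% higher and 16.5% lower among all genes. Genes named are the key genes of each list, up to 4 called genes per list in its main direction and 2 in the other averaging 50 or more counts and with the 3 cultures of each group fully apart, the 10 largest rises and falls, and genes next to *SUP35*, *LEU2* and *URA3*; not all picked out are printed, and 1 gene of the arginine list is not reported here by name. Symbols and promoters come from RefSeq (R64), where 5924 genes were found, 99.6% with the same start and end; 683 genes without an entry were kept. The Leu3 site was added to the motifs after values were seen.

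Replicate numbers recur in each group and were not treated as pairs in the main fit. Residuals of same-numbered cultures had a mean r of -0.0983, and those of other numbers 0.0469. Centring within groups ties these means together and they rest on few cultures, so they cannot exclude pairing. On simulated data with 200 changed genes of 5836, 44 of 50 changes with a log2FC of 0.75 were called. So were 50 of 50 with a log2FC of 1, and 9 unchanged genes. The counts were drawn from the fitted model itself, and changes were planted only in genes averaging 50 or more counts. Far fewer genes were changed than were called in the data. Recovery is thus not known for genes with fewer counts or for data that depart from these settings. DESeq2 1.42.0 served as an alternative, beside other scalings, filters and the omission of each culture. Figures were drawn with matplotlib.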

Additional observations from a re-analysis of the deposited data

Results flagged for a closer look

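In *SUP35* stage 3, the one group with 4 cultures, 19 values printed from it were examined for a culture set far apart from the other 3, and 3 were found. With groups of this size about 1 in 20 is set apart by chance. *SUP35* was highest in replicate 1, at 809 CPM, against 505 to 547 CPM in the other 3 cultures. *LEU2* was lowest in replicate 3, at 1733 CPM, against 2574 to 2743 CPM. *SUC2* was lowest in replicate 1, at 177 CPM, against 283 to 299.7 CPM. All 3 genes in these cultures remained below the lowest *sup35-218* culture.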

How the results depend on the processing

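The 863 higher and 965 lower genes became 263 and 515 when the test was made against a log2FC of 0.5 itself (glmTreat), 176 and 393 at a log2FC above 1 in size, and 1342 and 1367 by adjusted p alone; the first and last of these change the rule of the call. With other scalings, filters, DESeq2 or only the 6 cultures compared the counts were 757 to 1068 higher and 849 to 1034 lower. Leaving out each of the 10 cultures gave 776 to 1011 higher and 834 to 1009 lower. A replicate block in the fit gave 866 higher and 982 lower calls, and of the genes named the call of *MET3* alone was lost (adjusted p = 0.0554). No gene named reversed its direction and call under any alternative run. The lists with more lower than higher genes numbered 34 to 40, and those with more higher genes 32 to 39. Single lists were less stable. With 1 culture left out at a time, 151 list counts of called genes moved past the limit set for a change and 1409 did not. Of the list medians 91 moved and 689 did not. Only some of these moves are given above, so counts and medians of other lists can also rest on single cultures. Upper-quartile scaling raised the medians of all 78 lists by 0.06 to 0.07, that of the proteasome from 0.14 to 0.20 and that of replication genes from 0.19 to 0.26. Near the cutoff, *NAM7* (-0.52), *CHS1* (-0.52) and *PHO84* (-0.52) passed it in the fit of 6 cultures, as did *NDT80* (-0.51). *PDR5* passed with upper-quartile scaling (0.55) or without *SUP35* stage 3 replicate 1 (0.53), and *MF(ALPHA)1* without *sup35-218* replicate 1 (-0.52). Motif shares over all genes fell when only bases before the gene start were used, that of TGACTC to 6.49%. Totals of 3044096 to 4861009 counts leave levels below about 1 CPM unmeasured.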

Other observations

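Genes of meiosis and sporulation split, with 9 of 42 higher and 12 lower (21.4% and 28.6%, against 14.7% and 16.5% of all genes). *YSW1*, expressed in spore formation, went from 184, 188 and 148 CPM in stage 1 to 10.99, 14.1 and 12.8 CPM in *sup35-218* (log2FC -3.78, SE 0.46, adjusted p = 2.3e-05), and *MUM3*, a gene of spore wall formation, from 120.4, 121 and 96.2 to 11.5, 8.49 and 11.5 CPM (log2FC -3.41, SE 0.25, adjusted p = 4e-07). *REC8*, the meiotic cohesin, rose with 0.95 and the meiotic inducer *IME1* with 0.90, a call lost without stage 1 replicate 3 (adjusted p = 0.0517, edgeR) or *sup35-218* replicate 3 (adjusted p = 0.0596). *NDT80* was at -0.48 and not called. Autophagy genes were mixed, 4 of 25 higher and 5 lower, with *ATG13* at -1.04 and *ATG8* at 0.52. The *ATG8* call was lost without stage 1 replicate 3 (log2FC 0.44) or *sup35-218* replicate 3 (0.47), and in the fit of the 6 cultures compared (0.48).

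Gene families near chromosome ends moved in both directions. Of 11 COS genes 6 rose and 0 fell, with a median log2FC of 0.60, and the median of *SUP35* stage 3 against stage 1 was 0.74. *COS4* was at 84.7, 73.3 and 61.2 CPM in stage 1, 128 ± 10.4 (SD, n = 4) in *SUP35* stage 3 and 124, 136 and 135 in *sup35-218*. Of 13 PAU genes tested 7 fell and 1 rose, with a median of -0.81, and *PAU7* went from 17.8, 15.1 and 16.8 to 4.51, 3.68 and 5.52 CPM. Members of both families are close copies whose reads the counting could split. Within 10 kb of a chromosome end 24 of 89 genes were lower and 13 higher, against 676 and 637 of 4435 genes over 100 kb away. The excess was not particular to the last 10 kb. From 10 to 20 kb 27 of 108 genes were lower and 26 higher, and from 20 to 30 kb 37 of 131 and 28. No whole chromosome stood apart: the chromosome medians of log2FC lay within -0.071 and 0.067 of the median over all genes. Medians over 20 neighbouring genes ranged from -0.512, on chromosome IV from 655013 to 693261, to 0.415, on chromosome XV from 822588 to 853077.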
